A study of Mus musculus with 35 samples.

Results

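The hemogenic regions kept open in pre-HSC II are 154 stretches of mouse chromatin that were more accessible in hemogenic endothelium than in endothelium on both of 2 embryonic days and that stayed accessible in the latest blood precursor sampled. They were chosen from 76018 peaks of an ATAC-seq study, of which 73975 lie on autosomes. ATAC-seq relies on a transposase that inserts adapters where DNA is not packed away, and more reads from a region stand for more accessible chromatin. Values are given as CPM (counts per 1000000), the count of a peak scaled to the total of a library over all peaks. A region had to reach a mean of 8 CPM in hemogenic endothelium (HE) at embryonic days E9.5 and E10.5, with at least 2 times the mean of endothelial cells (EC) of the same day. These conditions held for 594 autosomal peaks, called hemogenic here. The mean in pre-HSC II then had to be at least 0.75 times the mean in E10.5 HE, which 154 regions met and 440 did not.

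The endothelial-to-hematopoietic transition is the process in which a few endothelial cells of the embryonic arteries become hemogenic, round up and leave the vessel wall as blood cells. Hematopoietic stem cells (HSC) arise on this path through precursors that are named by stage, pro-HSC, pre-HSC I and pre-HSC II, and that gain blood surface markers. Open chromatin away from gene starts often marks enhancers, and the set of open regions differs between cell types. All libraries came from pools of 1500 sorted cells of a transgenic line labelled 23GFP, amplified with 13 PCR cycles. The name is that of a green fluorescent reporter driven by an enhancer of Runx1, a transcription factor needed for the transition. The reporter is carried by every group, so no group is free of it.

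The 35 libraries fall into 9 groups. On each of E8.5, E9.5 and E10.5 there are 4 libraries of HE and 4 of EC. Cells labelled pro-HSC/HPC (HPC, hematopoietic progenitor cell) were taken at E9.5 with 3 libraries, and pre-HSC II and pre-HSC I at E10.5 with 4 libraries each. The dissected tissue is labelled PAS+VU for the E8.5 and E9.5 samples, with the day E8.5 written in that label for both, and AGM+VU for E10.5. Day and tissue therefore change together at E10.5. The series states that biological replicates are included, but the labels do not say which pools share a litter.

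Depth was lowest where it matters most for these regions. The libraries of pre-HSC II held 456770, 668956, 701221 and 1241216 counts, whereas the deepest library of the series held 7415315. In the shallowest pre-HSC II library 3 counts are 6.57 CPM, and a region had a median of 60.5 counts over all 4 pre-HSC II libraries (18 to 287). The libraries pre-HSC I 2 and 3 differed by less than sampling noise and were counted as 1 sample, given as their mean, which leaves 34 samples. In E8.5, libraries 1 and 2 of HE and EC were shallower, with 1004036 to 1634087 counts, than libraries 3 and 4, with 2666067 to 5733154 counts. Positions are those of the mm9 build as deposited, and the sources used here do not give whether the first base is counted from 0 or 1. No gene annotation or genome of that build was used, so regions carry no gene names and their place in exons, introns or promoters was not analysed here. For the same reason, marker genes of endothelium and blood were not looked up, and the labels of the populations were not checked against them.

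The levels of the 5 groups that entered the rule are a description of how the regions were picked. The median over the 154 regions of the group mean was 16.1 CPM in E9.5 HE and 4.67 CPM in E9.5 EC. At E10.5 it was 19.9 CPM in pre-HSC II, 14 CPM in HE and 4.8 CPM in EC. In the 440 hemogenic regions that were not kept, pre-HSC II had a median of 5.18 CPM beside 16.2 CPM in HE and 5.66 CPM in EC. The ratio of HE to EC had a median of 2.71 in the kept and 2.81 in the other hemogenic regions at E10.5, and of 3.26 in the kept and 3.24 in the others at E9.5. They parted in the ratio of pre-HSC II to HE, at a median of 1.27 (0.759 to 6.96) in the kept and 0.293 (0 to 0.75) in the others.

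**Figure D1:**
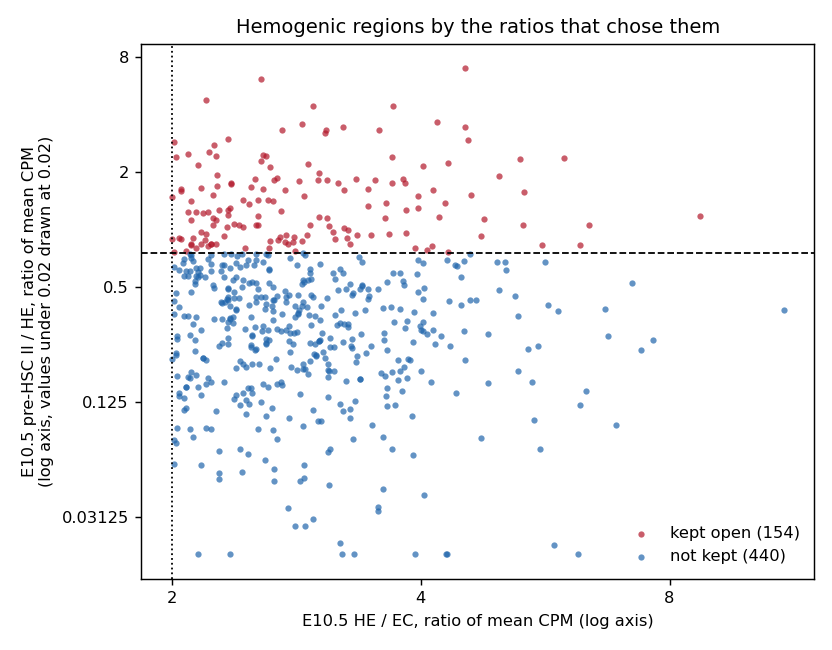
Each of the 594 hemogenic regions by the ratio of mean CPM in E10.5 HE to EC (x, log axis) and in pre-HSC II to E10.5 HE (y, log axis, with 8 regions under 0.02 drawn at 0.02). Red points are the 154 regions kept open and blue points the 440 not kept, the dashed line stands at 0.75 and the dotted line at 2, and the kept regions reach 6.96 on the y axis.

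The level in pre-HSC II spread widely above the minimum that the rule set. Its mean was above that in E10.5 HE in 107 of the 154 regions (69.5%), beside 52.8% of all autosomal peaks, for which no ratio was cut off. It was at least 2 times that in HE in 32 (20.8%), beside 23.2% of autosomal peaks, and at least 2 times that in E10.5 EC in 138 (89.6%), beside 28.4%. Single libraries varied more than the means. All 4 pre-HSC II libraries reached 0.75 times the HE mean in 61 regions (39.6%, beside 21.7% of autosomal peaks). At least 3 of the 4 did in 114 (74%, beside 45.3%). A pre-HSC II library without a count was found at 7 regions (4.55%). The share was 52.9% of autosomal peaks and 15% of those with at least 8 CPM in both HE groups. Every pre-HSC II library lay above every E10.5 EC library in 89 regions, a pattern that 9.82% of autosomal peaks show. Every HE library lay above every EC library in 138 regions at E9.5 (7.56% of autosomal peaks) and in 78 at E10.5 (2.75%). Since the rule used these groups, nothing is read from these counts.

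The rule takes in borderline regions on each side. Just inside the ratio of 0.75 lay chr6:118139587-118140595 at 0.759 and chr2:163027612-163029128 at 0.765. Just outside lay chr1:4613150-4613868 at 0.75 after rounding and chr2:38477025-38477557 at 0.746. At the HE minimum for E10.5, chr13:89540685-89541793 with 8.052 CPM and chr11:110382075-110382721 with 8.054 CPM were inside, and chr1:72082975-72083687 with 7.995 CPM and chr2:151362071-151362849 with 7.940 CPM were outside. At the HE minimum for E9.5, the nearest regions inside were chr6:21164508-21166144 at 8.378 CPM and chr7:133613681-133613975 at 8.407 CPM. Those outside were chr14:37431392-37432275 at 7.870 CPM and chr10:58594693-58595162 at 7.831 CPM. The ratio of HE to EC of 2 at E9.5 let in chr2:102741296-102742013 at 2.002 and chr1:189040320-189041081 at 2.047, and kept out chr3:27092437-27093215 at 1.968 and chr14:75234872-75235738 at 1.964. At E10.5 it let in chr10:118202817-118203896 at 2.003 and chr6:147708518-147709039 at 2.004, and kept out chr3:135344036-135344910 at 1.992 and chr1:52065223-52065549 at 1.988. By a single condition alone, 440 peaks missed the pre-HSC II ratio, 219 the E10.5 ratio, 89 the E9.5 ratio, 78 the E10.5 minimum and 66 the E9.5 minimum.

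The rule did not use E8.5 HE, E8.5 EC, pro-HSC/HPC or pre-HSC I. Among these groups the median over the kept regions of the group mean was highest in pro-HSC/HPC, at 21.8 CPM. The library medians there were 25.2, 24.9 and 17 CPM. The pre-HSC I samples had 17.1 CPM in library 1, 19.6 CPM in libraries 2 and 3 and 14.3 CPM in library 4, so they overlapped pro-HSC/HPC. At E8.5 the library medians were 12.2, 10.6, 10.3 and 9.85 CPM in HE and 8.02, 7.97, 7.13 and 7.53 CPM in EC. No library of pro-HSC/HPC or pre-HSC I fell as low as the highest E8.5 library, and the HE libraries of E8.5 all lay above those of E8.5 EC. Among all autosomal peaks the medians stayed between 3.03 and 5.98 CPM in every library.

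**Figure D2:**
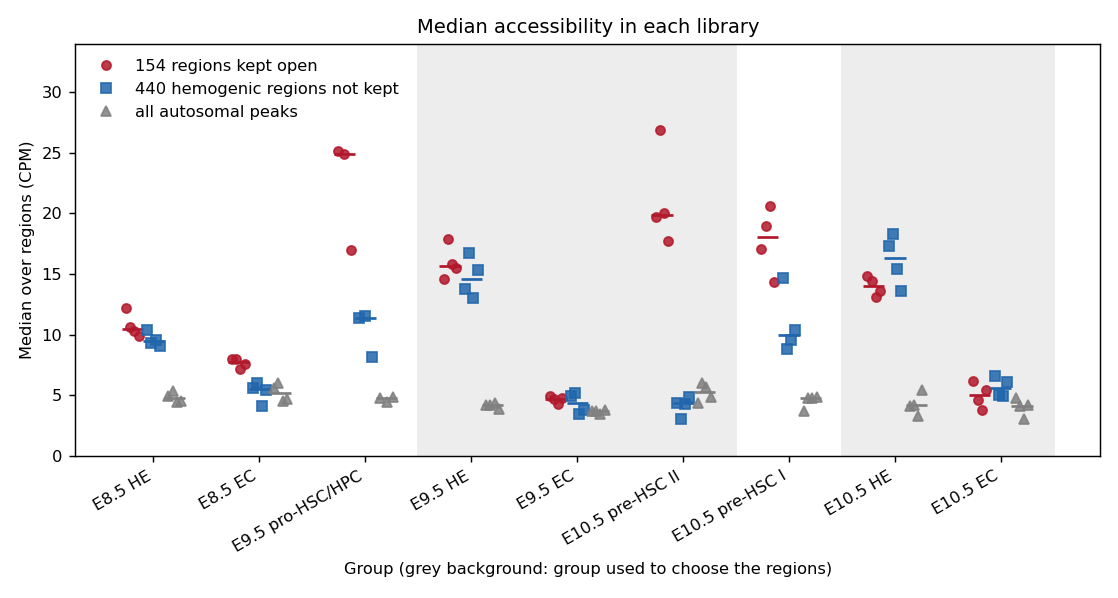
Median CPM over the 154 regions kept open (red circles), the 440 hemogenic regions not kept (blue squares) and all autosomal peaks (grey triangles) in each of the 35 libraries, with a line at the median of a group's libraries and pre-HSC I libraries 2 and 3 drawn apart. Groups with a grey background were used to choose the regions, and the red circles are highest in pre-HSC II (17.7 to 26.9 CPM) and pro-HSC/HPC (17 to 25.2 CPM).

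As a share of all counts in peaks, the 154 regions took 0.361% to 0.495% in pro-HSC/HPC, 0.261% to 0.375% in pre-HSC I, 0.202% to 0.239% in E8.5 HE and 0.144% to 0.182% in E8.5 EC. In the groups of the rule they took 0.351% to 0.499% in pre-HSC II, 0.26% to 0.294% in E10.5 HE and 0.0803% to 0.124% in E10.5 EC. The group with the highest mean was pro-HSC/HPC in 68 regions (44.2%, beside 10.3% of all autosomal peaks) and pre-HSC II in 47 (30.5%, beside 25.6%). It was E10.5 HE in 11, E9.5 HE in 10, pre-HSC I in 9, E8.5 HE in 6 and E8.5 EC in 3. Over all autosomal peaks these shares were 8.86%, 5.02%, 9.43%, 12.4% and 15.3%. Since the rule used some of these groups, nothing is read from this ranking. The mean of E8.5 EC lay above the means of both later EC groups in 99 of the 154 regions (64.3%), beside 51.6% of all autosomal peaks. Since the rule asked for low EC at E9.5 and E10.5, nothing is read from that count.

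**Figure D3:**
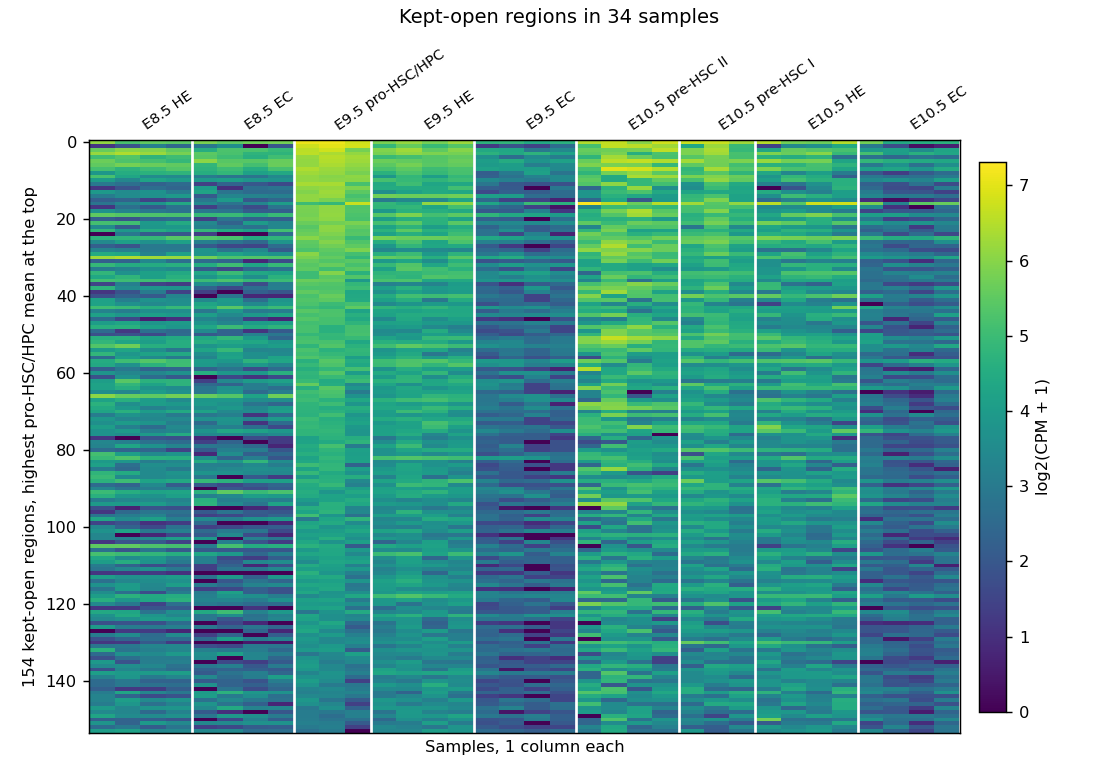
Accessibility of the 154 regions kept open (1 line each, ordered by their mean in pro-HSC/HPC) in 34 samples (1 column each, grouped as written at the top), as log2(CPM + 1) by colour. Most lines are bright in pro-HSC/HPC and pre-HSC II and dark in E9.5 EC and E10.5 EC, where the medians of the group means were 4.67 and 4.8 CPM.

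The first test asked whether the regions were more open in E9.5 pro-HSC/HPC than in endothelium, in libraries that the rule did not use. It does not count open regions, since a region equally open in both groups is not called. The mean in pro-HSC/HPC was 8 CPM or more in 145 of the 154 regions (94.2%). That share was 91.8% of autosomal peaks with at least 8 CPM in both HE groups and 32% of all autosomal peaks. E9.5 pro-HSC/HPC were set against E8.5 EC, the only endothelial group outside the rule, so population and day differ together and cannot be told apart. Of the 154 regions, 89 were higher in pro-HSC/HPC and 0 were lower. Over all 67108 peaks tested, 3.68% were higher and 3.32% lower. Among the 19305 autosomal peaks with at least 8 CPM in both HE groups, 4.79% were higher and 3.7% lower. The median log2 fold change of the 154 regions was 1.43, against 0.05 over all peaks. Among the 440 hemogenic regions not kept, 130 were higher and 5 lower, with a median of 1.01. A region was called where the Benjamini-Hochberg adjusted p of edgeR's quasi-likelihood test, over all peaks, was under 0.05. The libraries of the groups did not overlap in CPM in 99 regions that were higher and 3 that were lower in pro-HSC/HPC, as in 9.27% and 11.6% of all peaks tested. DESeq2, which scales the libraries differently, called 87 regions, all higher, and 2894 peaks higher (4.31%) and 3942 lower (5.87%) over the genome, where edgeR called 2470 and 2229. Without the 4 shallow E8.5 libraries, a choice made after seeing the data, 71 regions were higher and 0 lower, beside 1.55% and 1.79% of all peaks. After every library was thinned to 456770 counts 54 of the 123 regions still tested were higher and 0 lower, beside 3.32% and 4.07% of the peaks tested.

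Among called regions without overlap between the groups compared, chr7:19901535-19902531 had the smallest adjusted p in that test. It had 80.3, 80.7 and 35.7 CPM in pro-HSC/HPC, against 1.6, 3.98, 3 and 2.15 CPM in E8.5 EC. Its log2 fold change was 4.74 ± 0.47 (SE; edgeR quasi-likelihood test, adjusted p = 5.16e-10). All 3 pro-HSC/HPC libraries lay far above the EC libraries, and library 3 was the lowest of them. In pre-HSC II it had 39.4, 64.3, 28.5 and 33 CPM, in E10.5 HE 8.23, 6.1, 11.9 and 23.6 CPM and in E10.5 EC 3.78, 2.42, 5.6 and 2.21 CPM, so pre-HSC II did not overlap HE.

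The region chr12:12503086-12504471 had the highest ratio of pre-HSC II to E10.5 HE of all 154, at 6.96. Its CPM was 107, 129 and 113 in pro-HSC/HPC, against 6.41, 11, 0 and 2.87 in E8.5 EC, a log2 fold change of 4.97 ± 0.55 (SE; edgeR adjusted p = 3.59e-09), or 5.56 ± 0.63 without EC library 2. Pro-HSC/HPC and E8.5 EC did not overlap, as the choice of this region required. At E9.5 it was already open in HE, with 28.3, 46.7, 29.4 and 39.6 CPM, whereas EC of that day had 1.37, 2.69, 1.71 and 5.03 CPM. At E10.5 the values were 35, 98.7, 92.7 and 76.5 CPM in pre-HSC II, 1.65, 9.63, 11.4 and 20.9 CPM in HE and 6.61, 2.23, 0.233 and 0.552 CPM in EC. HE and EC overlapped at E10.5, since EC library 1 lay above HE library 1.

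The 5 regions with the smallest adjusted p, among called regions without overlap between the groups, include 3 more. Region chr4:82918972-82920268 had 42.5, 52.5 and 44.6 CPM in pro-HSC/HPC, against 3.21, 1.99, 1.88 and 5.02 CPM in E8.5 EC, a log2 fold change of 3.94 ± 0.45 (SE; edgeR adjusted p = 7.98e-09). For chr1:163664708-163666022 the values were 57.2, 66.2 and 35.7 CPM in pro-HSC/HPC, against 1.6, 5.98, 3.75 and 3.59 CPM in E8.5 EC, with a log2 fold change of 3.95 ± 0.46 (SE; edgeR adjusted p = 1.03e-08). The groups did not overlap at either, as the choice of these regions required. The last of the 5, chr11:90419707-90420548, had 36, 47.6 and 20.3 CPM in pro-HSC/HPC, against 0, 5.98, 0.75 and 0.717 CPM in E8.5 EC, a log2 fold change of 4.74 ± 0.53 (SE; edgeR adjusted p = 4.26e-09). Its E8.5 EC library 2 stood above the other EC libraries but below all of pro-HSC/HPC, and without it the log2 fold change was 5.85 ± 0.61.

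The second test set E10.5 pre-HSC I, the stage before pre-HSC II by name, against E8.5 EC. Day, tissue and population change together here. Of the 154 regions, 68 were higher and 2 lower in pre-HSC I. Over all peaks tested, 4.33% were higher and 4.77% lower. Among the 19305 autosomal peaks with at least 8 CPM in both HE groups, 7.54% were higher and 4.81% lower. The median log2 fold change was 1.10 in the 154 regions and 0.04 over all peaks, and 1.28 in the 440 hemogenic regions not kept, of which 175 were higher and 11 lower. Over all peaks the split of 2905 higher and 3203 lower moved to 2302 higher and 4025 lower with RLE size factors. That scaling put the median of all peaks at -0.10 and that of the 154 regions at 0.96, with 61 higher and 2 lower, beside 3.43% and 6.0% of all peaks. After thinning, 38 regions were higher and 3 lower, beside 3.78% and 6.18% of the peaks tested. Groups did not overlap in 74 regions that were higher and 5 that were lower in pre-HSC I, as in 8.03% and 12.5% of all peaks tested.

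Among called regions without overlap between these groups, the smallest adjusted p belonged to chr15:25839597-25840426. It was also among the 5 regions with the highest ratio of E10.5 HE to EC. It had 47.2 CPM in pre-HSC I library 1, 32.7 CPM in libraries 2 and 3 and 18.9 CPM in library 4. In E8.5 EC it had 0, 0, 0.375 and 0.359 CPM, which stand for 2 counts in all. The ratio was 127, with an exact 95% counting interval of 34.4 to 1051.1, and the adjusted p of edgeR's test was 2.85e-11. In pro-HSC/HPC it had 12.9, 9.7 and 11.4 CPM, below every pre-HSC I sample, and a ratio to E8.5 EC of 44.8 (12 to 376). The difference between pre-HSC I and pro-HSC/HPC had an adjusted p of 0.181 in edgeR's test. In pre-HSC II it had 35, 32.9, 27.1 and 22.6 CPM, in E10.5 HE 37, 29.5, 27.9 and 16.3 CPM and in E10.5 EC 4.72, 4.1, 3.27 and 5.25 CPM. Pre-HSC II and HE overlapped, and both lay above EC in every library.

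No counts at all were found in E8.5 EC at chr14:23406614-23407270. It had 9.8 to 13.4 CPM in the 3 pre-HSC I samples, at least 28.7-fold higher than E8.5 EC when that group is given 3 counts in all (edgeR adjusted p = 2.76e-07). In pro-HSC/HPC it had 24.1, 13.2 and 8.11 CPM, at least 46.4-fold higher (adjusted p = 1.44e-08). Even E8.5 HE had a few counts, at 1.22, 1.33, 1.41 and 1.05 CPM, at least 3.18-fold higher (edgeR adjusted p = 0.0328). That last call was lost without any 1 of the 8 E8.5 libraries except HE library 1, with an adjusted p of 0.0505 to 0.105. Intervals cover counting error only. Floors cover only that of the group without counts and take the count of the other group as exact, so the fold could be lower. Reads amplified by PCR are also not independent molecules. Among values from 10 to 49, even ones outnumbered odd ones in every library, and whether reads were counted in pairs was not tested. With every count halved, the bounds at chr14:23406614-23407270 would be 14.4-fold in pre-HSC I, 23.2-fold in pro-HSC/HPC and 1.59-fold in E8.5 HE. The intervals at chr15:25839597-25840426 would be 22.3 to 5101.3 in pre-HSC I and 7.71 to 1831.6 in pro-HSC/HPC.

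The 5 regions with the smallest adjusted p in pre-HSC I were taken from called regions without overlap between the groups. All 5 were also called higher in pro-HSC/HPC than in E8.5 EC. Region chr6:146623492-146624140 had 28.2, 25.3 and 21.9 CPM in pre-HSC I, against 0, 2.99, 2.25 and 3.59 CPM in E8.5 EC, a log2 fold change of 3.48 ± 0.46 (SE; edgeR adjusted p = 4.55e-07). For chr15:67066420-67067376 the values were 34.3, 59.6 and 23.2 CPM in pre-HSC I, against 6.41, 5.98, 3.38 and 3.59 CPM in E8.5 EC, a log2 fold change of 3.25 ± 0.43 (SE; edgeR adjusted p = 5.39e-07). The region chr11:90419707-90420548, described above, had 52.7, 36.7 and 42.7 CPM in pre-HSC I and a log2 fold change of 5.06 ± 0.53 (SE; edgeR adjusted p = 7e-10), or 6.19 ± 0.61 without E8.5 EC library 2. None of the 3 had overlapping groups, as their choice required.

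Both regions that were lower in pre-HSC I were open early in endothelium. Region chr12:32827586-32828774 had 14.7, 9.54 and 8.53 CPM in pre-HSC I, against 48.1, 39.8, 18 and 50.9 CPM in E8.5 EC, a log2 fold change of -1.70 ± 0.45 (SE; edgeR adjusted p = 0.009). It had 6.45, 10.6, 12 and 5.35 CPM in E9.5 EC and 6.14, 2.23, 0.934 and 7.18 CPM in E10.5 EC, so no later EC library came up to the lowest of E8.5. Without pre-HSC I library 4 its adjusted p was 0.0561, and without the 4 shallow E8.5 libraries 0.0625. Region chr9:123847761-123849383 had 19.6, 16.9 and 18.3 CPM in pre-HSC I, against 52.9, 37.8, 39.4 and 37.7 CPM in E8.5 EC, a log2 fold change of -1.07 ± 0.31 (SE; edgeR adjusted p = 0.0171). The groups did not overlap at either region. In pre-HSC II the second had 30.6, 44.8, 47.1 and 30.6 CPM, above all of pre-HSC I. Its call was lost without E8.5 EC library 1, where the adjusted p was 0.0504, and without each pre-HSC I sample in turn, where it was 0.0532, 0.0678 and 0.0654. In E8.5 HE this region had 75.3, 85.2, 76.5 and 71.9 CPM, above every E8.5 EC library.

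**Figure D4:**
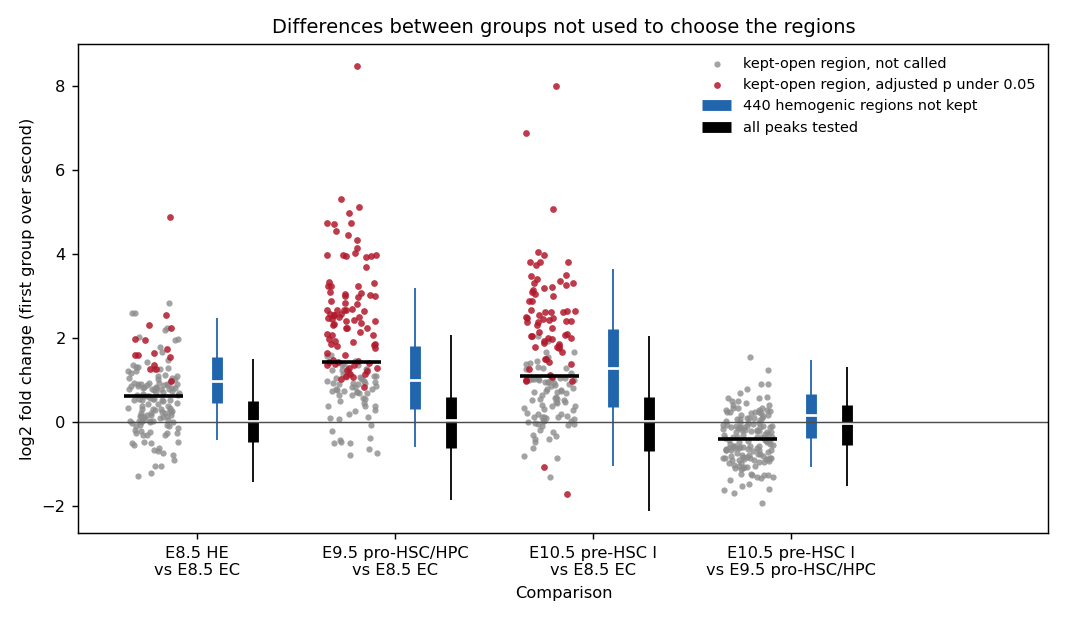
The log2 fold change (y, first group over second) of each of the 154 regions in 4 tests between groups that the rule did not use, in red where the adjusted p is under 0.05, with a black line at the median. Blue and black bars give the 440 hemogenic regions not kept and all peaks tested (thick, quartiles; thin, 5th to 95th percentile; white tick, median); the medians of the 154 regions are 0.62, 1.43, 1.10 and -0.40 from left to right.

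Pre-HSC I and pro-HSC/HPC were then compared with each other. None of the 154 regions passed in edgeR's test, where 0.00745% of all peaks were higher and 0.00894% lower in pre-HSC I. At an unadjusted p under 0.05 there were 3 higher and 27 lower regions, beside 3.59% and 4.36% of all peaks, and DESeq2 called 1 higher and 3 lower, beside 0.106% and 0.221%. The median log2 fold change was -0.40 in the 154 regions, -0.02 over all peaks and 0.18 in the 440 hemogenic regions not kept. The groups did not overlap in 6 regions that were higher and 38 that were lower in pre-HSC I, as in 5.88% and 7.69% of all peaks tested. When pre-HSC I libraries 2 and 3 entered as separate samples 0 regions were called higher and 2 lower, beside 0.0328% and 0.0879% of all peaks. With both left out it was 0 higher and 1 lower, beside 0.0518% and 0.113%.

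The tests against E8.5 EC share their EC libraries, so their calls are not independent of each other. Of the 154 regions, 64 were called higher in both pro-HSC/HPC and pre-HSC I, 25 in pro-HSC/HPC alone and 4 in pre-HSC I alone. Over all peaks tested these shares were 2.0%, 1.68% and 2.33%. The 64 regions had medians of 29 CPM in pro-HSC/HPC, 23.1 CPM in pre-HSC I, 25.1 CPM in pre-HSC II and 4.45 CPM in E8.5 EC. Another 57 regions passed none of the 4 tests, with medians of 15.8 CPM in pro-HSC/HPC, 12.4 CPM in pre-HSC I, 16.4 CPM in pre-HSC II and 10.9 CPM in E8.5 EC. The share of all peaks that passed none of them is not given here. Since the tests are set against E8.5 EC, a low level in that group helped a region into the first set.

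A further test, of E8.5 HE against E8.5 EC, asked whether the regions were more open in HE than in EC of the same day as early as E8.5, with tissue and day matched. In E8.5 HE, 15 of the 154 regions were higher than in E8.5 EC and 0 were lower. Over all peaks tested 1.3% were higher and 0.128% lower. Among the 19305 autosomal peaks with at least 8 CPM in both HE groups, 3.33% were higher and 0.124% lower. The median log2 fold change was 0.62 in the 154 regions and 0.02 over all peaks. In the 440 hemogenic regions not kept it was 0.98, with 68 higher and 1 lower. Groups did not overlap in 31 regions that were higher and 1 that was lower in HE, as in 6.08% and 5.65% of all peaks tested. Scaling by total counts put the median of all peaks at -0.09 and that of the 154 regions at 0.51, with 6 higher and 0 lower, beside 0.896% and 0.151% of all peaks. The 15 calls also depend on single libraries. The count was 6, 7, 5 and 8 without EC library 1, 2, 3 and 4 in turn, and 7, 7, 6 and 10 without HE library 1, 2, 3 and 4. Shares of all peaks called are not given for these single omissions. Without the 4 shallow libraries together it was 0 in edgeR's test, beside 0.0233% of all peaks. At an unadjusted p under 0.05, 31 regions were then higher and 2 lower, beside 4.19% and 2.41% of all peaks. DESeq2 called 26 regions higher and 0 lower with all libraries, beside 2.93% and 0.52% of all peaks.

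Among called regions without overlap between the groups, the smallest adjusted p at E8.5 was that of chr2:134697896-134698668. It had 29.4, 37.3, 24.7 and 23.4 CPM in E8.5 HE, against 11.2, 3.98, 7.88 and 2.87 CPM in E8.5 EC, a log2 fold change of 2.25 ± 0.38 (SE; edgeR adjusted p = 0.000299). Every HE library lay above every EC library, but the adjusted p was 0.115 without the 4 shallow libraries. Its level in HE was 34.8, 39.3, 35.3 and 32 CPM at E9.5 and 20.6, 38.5, 20.6 and 21.8 CPM at E10.5. Pre-HSC II had 30.6, 34.4, 17.1 and 12.9 CPM, which overlaps HE.

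At chr11:24039273-24040028 the values were 30, 9.98, 9.9 and 11.3 CPM in E8.5 HE, against 6.41, 0, 3 and 1.43 CPM in E8.5 EC, a log2 fold change of 2.55 ± 0.52 (SE; edgeR adjusted p = 0.00291). HE library 1 stood far above the other 3. The largest difference in mean CPM among the 5 was at chr2:21885142-21886296, with 71.6, 86.5, 72.8 and 54.9 CPM in E8.5 HE, against 43.3, 35.9, 25.9 and 25.8 CPM in E8.5 EC. Its log2 fold change was 1.26 ± 0.27 (SE; edgeR adjusted p = 0.00595). That region was also open in pro-HSC/HPC, at 94.5, 82.9 and 69 CPM, and in pre-HSC II it had 43.8, 56.8, 22.8 and 37.1 CPM. The remaining pair of the 5, chr4:20876737-20877582 and chr4:12574920-12575578, had log2 fold changes of 1.26 ± 0.30 and 1.95 ± 0.50 (SE; edgeR adjusted p = 0.0155 and 0.0259). The call on the first of that pair was lost without EC library 1 or 3 or HE library 2, with an adjusted p of 0.0532 to 0.0946, and the call on the other without EC library 2, 3 or 4 or HE library 1 or 3, with 0.0682 to 0.127. None of these 5 regions had overlapping groups at E8.5, as their choice required. A called region with overlap, at an adjusted p of 0.0154 in edgeR's test, was passed over by that choice. None of the 5 kept an adjusted p under 0.05 without the 4 shallow libraries.

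Of the 15 regions higher in E8.5 HE, 12 were also higher in pro-HSC/HPC and 10 in pre-HSC I than in E8.5 EC. In all 3 tests 10 regions were called higher. Over all peaks tested, 874 were higher in E8.5 HE and 195 (0.291%) in all 3 tests. Since these tests share their E8.5 EC libraries, nothing is read from the overlap. Beside those already named the 10 regions were chr1:52635078-52635874, chr14:105300057-105301020, chr8:59589395-59590074 and chr1:165060138-165060893. At E8.5 the call on each of these 4 was lost without some single libraries, and so was the pro-HSC/HPC call on chr8:59589395-59590074 without library 1 (edgeR adjusted p = 0.192). For chr1:52635078-52635874 the E8.5 adjusted p was 0.0572, 0.0893, 0.0632 and 0.0578 without EC library 1, EC library 2, HE library 1 and HE library 2. The same region had 43.8, 29.9, 48.5 and 43.5 CPM in pre-HSC II. It had 54.3, 44, 23.6 and 39.9 CPM in E10.5 HE and 17, 10.8, 12.8 and 9.39 CPM in E10.5 EC, and both HE and pre-HSC II lay above EC in every library. By contrast chr1:165060138-165060893 had 2.19 and 2.99 CPM in pre-HSC II libraries 1 and 2, which stand for 1 and 2 counts, and 15.7 CPM in library 3. The region chr8:59589395-59590074 had 52.3 CPM in pre-HSC II library 2, against 11.3 to 17.5 CPM in the other libraries.

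The 5 regions with the highest mean in pre-HSC II are described next, with no test of the groups that chose them. Region chr8:74845663-74849003, which spans 3340 bases and is the widest of the 154, had 158, 94.2, 48.5 and 91.8 CPM in pre-HSC II. In E10.5 HE it had 93, 39.8, 107 and 109 CPM and in E10.5 EC 54.8, 8.56, 43.4 and 47.8 CPM. Its libraries varied widely in every E10.5 group and overlapped between HE and EC. At E8.5 it had 6.12, 9.32, 12.6 and 20.4 CPM in HE and 9.62, 5.98, 9 and 15.8 CPM in EC, which overlapped. In pro-HSC/HPC it had 31, 28.2 and 103 CPM, with library 3 far above the other 2. Its log2 fold change against E8.5 EC was 2.34 ± 0.46 in pro-HSC/HPC and 2.62 ± 0.46 in pre-HSC I (SE; edgeR adjusted p = 0.000432 and 6.55e-05). Without pro-HSC/HPC library 3 the first was 1.59 ± 0.48 (SE; edgeR adjusted p = 0.0339).

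Region chr6:42302864-42305143 had 35, 126, 113 and 87 CPM in pre-HSC II, 57.6, 35.9, 33.3 and 18.2 CPM in E10.5 HE and 16.5, 18.8, 13.1 and 21 CPM in E10.5 EC. Its pre-HSC II library 1, the shallowest, stood well below the other 3. The highest level in pro-HSC/HPC of these 5 was at chr4:144539030-144540525, with 136, 139 and 110 CPM, and its pre-HSC II libraries had 85.4, 98.7, 62.7 and 110 CPM. It was open in both populations at E8.5, with 67.3, 35.9, 45.3 and 42.2 CPM in HE and 56.1, 43.8, 51 and 54.5 CPM in EC, and these overlapped. Its log2 fold change between pro-HSC/HPC and E8.5 EC was 1.42 ± 0.26 (SE; edgeR adjusted p = 0.000162).

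At chr6:11543522-11544788 pre-HSC II had 48.2, 92.7, 99.8 and 85.4 CPM, and E8.5 EC had 64.9, 41.8, 41.6 and 48.4 CPM. The region passed none of the 4 tests. In E9.5 EC it had 15.9, 21.5, 12.8 and 17.3 CPM, all below the E8.5 EC libraries. Region chr5:89410169-89411250 had 61.3, 100, 78.4 and 65.3 CPM in pre-HSC II, against 42.8, 27.9, 22.2 and 18.2 CPM in E10.5 HE. Every pre-HSC II library there lay above every HE library. Its mean was 30.6 ± 3.76 CPM in pro-HSC/HPC and, over 3 samples of pre-HSC I, 30.4 ± 9.37 CPM (SD), both below every pre-HSC II library.

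Among the 5 regions with the highest ratio of E10.5 HE to EC, the ratio ran from 5.6 to 8.72. The highest was that of chr13:11928847-11929878, with 4.94, 8.02, 11.9 and 9.98 CPM in E10.5 HE, against 0.945, 0.186, 0.934 and 1.93 CPM in E10.5 EC. It was far more open in pro-HSC/HPC, at 67.2, 56.5 and 40.6 CPM, than in E9.5 HE, at 7.01, 9.45, 9.78 and 18.8 CPM. In pre-HSC II it had 4.38, 19.4, 2.85 and 14.5 CPM, so its libraries lay on both sides of those of HE. Its log2 fold change between pro-HSC/HPC and E8.5 EC was 3.23 ± 0.51 (SE; edgeR adjusted p = 1.13e-05).

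Region chr17:89572711-89573478 had 52.5, 62.8, 54.2 and 42.7 CPM in pre-HSC II, 24.7, 30.2, 23.8 and 11.8 CPM in E10.5 HE and 2.36, 7.82, 2.8 and 2.21 CPM in E10.5 EC. The 3 groups did not overlap and stood in that order. It missed the threshold against E8.5 EC, with an adjusted p of 0.0736 in pro-HSC/HPC and 0.0755 in pre-HSC I by edgeR's test. The last pair, chr11:110382075-110382721 and chr6:65532832-65533464, had ratios of HE to EC of 6.23 and 5.6 and lower levels in pre-HSC II, of 6.66 ± 5.78 and 11.9 ± 6.99 CPM (SD, n = 4). At the first of them the E10.5 HE libraries ran from 1.82 to 19.7 CPM and overlapped EC.

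The kept regions can also be set beside the other hemogenic ones in the blood populations that the rule left out. The mean in pro-HSC/HPC was above that in E9.5 HE in 122 of 154 kept regions (79.2%) and in 74 of 440 not kept (16.8%), beside 56.1% of all autosomal peaks. The mean in pre-HSC I reached 0.75 times that in E10.5 HE in 129 of 154 kept regions (83.8%) and in 169 of 440 not kept (38.4%), beside 72.8% of autosomal peaks. Among the 19305 autosomal peaks with at least 8 CPM in both HE groups these shares were 46.7% for pro-HSC/HPC and 81.1% for pre-HSC I, the second close to that of the kept regions. Both ratios are taken over an HE group that the rule used, so they are given without a test. Among the kept regions the median ratio of pro-HSC/HPC to E9.5 HE was 1.32 (0.358 to 4.86), and that of pre-HSC I to E10.5 HE was 1.11 (0.435 to 4.06).

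The kept regions had a median width of 853.5 bases (294 to 3340), against 747.5 bases in the other hemogenic ones. Autosomal peaks with at least 8 CPM in both HE groups had a median of 1142.0 bases and all autosomal peaks 495.0 bases. A wide peak gathers more counts, and CPM is not given per length here. The 154 regions lay on all 19 autosomes. Chromosome 2 held 22 of them (14.3%, against 8.6% of all autosomal peaks), followed by chromosomes 5, 6 and 13 with 12 each, and chromosome 15 held 2. Another hemogenic peak lay within 100000 bases of 24 of them (15.6%), against 25.7% of those not kept. The share was 7.91% of all autosomal peaks and 8.37% of those with at least 8 CPM in both HE groups.

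Within 20000 bases of each other lay 2 pairs. The first, chr11:90415167-90415790 and chr11:90419707-90420548, are 3917 bases apart. The narrower of them had 16.7 ± 5.51 CPM in pro-HSC/HPC (SD, n = 3), against 4.81, 0, 0 and 0.717 CPM in E8.5 EC, a log2 fold change of 3.98 ± 0.66 (SE; edgeR adjusted p = 2.86e-05). Both members of that pair were therefore higher in pro-HSC/HPC, and both were higher in pre-HSC I, where the narrower had a log2 fold change of 4.05 ± 0.66 (SE; edgeR adjusted p = 2.15e-05). Without E8.5 EC library 1, where its EC level was highest, these were 5.66 ± 0.81 in pro-HSC/HPC and 5.74 ± 0.81 in pre-HSC I.

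The second pair, chr2:163027612-163029128 and chr2:163029629-163030603, is only 501 bases apart and passed none of the 4 tests. The first of them had 50.4, 38.9, 7.13 and 17.7 CPM in pre-HSC II, 37.8, 39.5, 42.8 and 29 CPM in E10.5 HE and 13.2, 15.6, 24.3 and 21 CPM in E10.5 EC. Its neighbour had 2.19, 8.97, 14.3 and 11.3 CPM in pre-HSC II, 14, 5.78, 7.32 and 13.6 CPM in E10.5 HE and 8.5, 4.28, 2.57 and 3.87 CPM in E10.5 EC. At both, pre-HSC II overlapped EC, so their place among the kept regions rests on the means. A more distant pair, chr2:102713872-102714556 and chr2:102741296-102742013, lies 26740 bases apart.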

How the data were processed

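For 76018 peaks in 35 libraries the authors deposited raw counts, not normalized. Per the submitters' processing notes the build was mm9 and the tools included Trim Galore 0.3.1, Bowtie 1.0.0, MACS2 2.0.1, bedtools 2.17.0 and DiffBind 1.14.6, with no settings. The sources used here do not give how reads were filtered or shifted for the transposase. Even numbers made up 54.1% to 78.2% of each library's values from 10 to 49, so a count may not stand for 1 independent fragment, and counting intervals may be too narrow.

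CPM is the count divided by the library's total in peaks, averaged over a group, and chose the 154 regions. Members, lists and tests were chosen with earlier results of these data known. Tests used edgeR 4.0.16 in R 4.3.3 (glmQLFit and glmQLFTest, two-sided, TMM, filterByExpr by group, 1 mean per group, no covariate) on all 34 samples, with pre-HSC I libraries 2 and 3 entered as their mean. Of the peaks, 67108 were tested and 8910 removed by the count filter, which all 154 regions passed. The common dispersion was 0.147, with 25 residual degrees of freedom. Adjustment was Benjamini-Hochberg over all peaks tested, with a threshold of 0.05. Reads are PCR products without molecular identifiers. The labels tie no pool to a litter, and p-values cover only the spread of the libraries at hand, part of which may be technical. DESeq2 1.42.0 was an alternative.

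Regions were named by rule. These were the 5 highest in pre-HSC II, the 5 with the highest ratio of E10.5 HE to EC, up to 5 called per test and direction without overlap between groups, those nearest each threshold, those in runs with gaps up to 20000 bases, and those called in 3 or more tests. Gene lists and motif searches need a genome or annotation of mm9, which was not used here. Alternatives were other scaling, no count filter, only the groups compared, DESeq2, thinning, the replicate block, other thresholds of the rule and leaving out libraries.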

Additional observations from a re-analysis of the deposited data

Results flagged for a closer look

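Single libraries that stood apart from the other 3 of their group were looked for at the 32 named regions. Dixon's test at the 95% level picked out 16 of 224 sets of 4 libraries. Chance picks out about 1 in 20 groups.

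In pre-HSC II, library 2 stood high at chr6:65532832-65533464 with 22.4 CPM and at chr8:59589395-59590074 with 52.3 CPM. Library 4 stood low at chr1:163664708-163666022 with 15.3 CPM. In E10.5 HE, library 2 stood high at chr2:134697896-134698668 with 38.5 CPM. In E10.5 EC, library 1 stood high at chr4:144539030-144540525 with 52.9 CPM and library 2 at chr17:89572711-89573478 with 7.82 CPM.

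In E9.5 EC, library 3 stood high at chr14:23406614-23407270 with 3.42 CPM and at chr14:105300057-105301020 with 13.7 CPM, and low at chr11:90415167-90415790 with 0.854 CPM. Library 1 stood high at chr7:19901535-19902531 with 6.45 CPM. In E8.5 HE, library 1 stood high at chr11:24039273-24040028 with 30 CPM and at chr14:105300057-105301020 with 25.7 CPM, and library 3 at chr15:25839597-25840426 with 3.18 CPM. In E8.5 EC, library 1 stood high at chr9:123847761-123849383 with 52.9 CPM and at chr11:90415167-90415790 with 4.81 CPM, and library 2 at chr11:90419707-90420548 with 5.98 CPM.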

How the results depend on the processing

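How many regions meet the rule depends on its thresholds and on the scaling of CPM. The number of 154 became 98 with TMM-adjusted library sizes (95 of them among the 154), 325 and 82 with an HE minimum of 5 and 12 CPM, 429 and 49 with 1.5 and 3 times EC, and 248 with 0.5 times HE for pre-HSC II. It was 137 to 183 without each library in turn. After thinning to 456770 counts 221 regions met it, of which 94 were among the 154. Leaving out libraries 1 and 4 of E10.5 HE gave 159, with 106 shared, and omitting 3 libraries of E9.5 that stand apart by a peak on chromosome X gave 160, with 141 shared. These 2 choices, and leaving out shallow E8.5 libraries, were made after seeing the data. The cause was not tested.

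For E8.5 HE against E8.5 EC, 15 regions were called, but 6 with scaling by total counts, 26 with DESeq2, 3 after thinning, 5 to 10 without each library in turn and 0 without the 4 shallow E8.5 libraries. For pro-HSC/HPC against E8.5 EC, 89 became 54 after thinning and 70 to 88 without each library. For pre-HSC I against E8.5 EC, 70 became 41 after thinning and 53 to 67 without each library. Thinning left 123 of the 154 regions to test. For pre-HSC I against pro-HSC/HPC, 0 became 4 with DESeq2, 2 when libraries 2 and 3 of pre-HSC I entered separately and 0 to 1 without each sample. The share of all peaks called is not given for thinning at E8.5 or for single libraries left out. Those counts are therefore not read alone.

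Same-numbered libraries correlated at -0.022 to 0.069 in their deviations from the group means, and the main fit used no pairing. In E8.5 HE against E8.5 EC the 4 same-numbered pairs had 0.032 to 0.069. There, pairs within libraries 1 and 2 or within 3 and 4 had 0.025 to 0.078. Pairs across that split, which is also the split in depth, had -0.062 to -0.028. Whether these libraries share a batch was not tested. With the replicate number as a block, 18, 86, 67 and 0 regions were called in the 4 tests in the order above. Neither their directions nor the share of all peaks called with that block are given here, so nothing is read from these counts alone. Of 703 values of named regions under the alternatives, 609 stayed on their side of the threshold, 94 lost the call and 0 changed sign. Regions not tested under an alternative are left out of these numbers. After thinning, 23 of 41 named values stayed, 14 lost the call and the rest were not tested. Depth limits what pre-HSC II can show, since 8 CPM are 3.65 counts in its shallowest library.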
